A study of Mus musculus with 2 samples.

Results

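Matricellular proteins are secreted proteins that bind collagen, growth factors and integrins and change how cells attach to the matrix. In the heart they are known from the endocardial cushions, which become the valves and septa, and from the wall of the great arteries, to both of which the cardiac neural crest contributes. The genes examined were a list of 10 given by name, namely Postn, Tnc, Tgfbi, Sparc, Thbs1, Thbs2, Ccn1, Ccn2, Spp1 and Fn1, taken from the clusters of the array annotated to a single gene symbol, with the brightest cluster standing for the gene. Of these, 9 were measured among 19938 genes in all, each by 1 cluster. The expression of Spp1 is not analysed here.

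The samples were tdTomato-positive cells sorted from the hearts of C57BL/6 mouse embryos at stage E14.5, in which R26tdTomato/+, a fluorescent reporter, is switched on by Wnt1-Cre and so marks descendants of the neural crest. The control embryos were Adam19+/+ and the mutant embryos Adam19-/-, and both carried Wnt1-Cre and 1 copy of the reporter. Adam19 encodes a membrane metalloprotease, and the -/- label stands for its loss in every cell of the embryo, not in the neural crest alone, as far as the genotype says. There was 1 array per genotype, the Affymetrix Mouse Gene 1.0 ST, so each gene has a value per array and their difference, with no error or test. The sources used here do not give the number of embryos behind each sample.

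All values are log2 signals as the authors deposited them. Control stands for the Adam19+/+ and mutant for the Adam19-/- sample, and a difference is mutant minus control. A gene was counted as above the floor when at least 1 array exceeded the median gene's signal of 8.01, which 10122 genes did. Their median difference was 0.04, with the central 95% from -0.20 to 0.30. Adam19 was at 11.62 and 9.77, or 3.60-fold lower in the Adam19-/- sample. Of markers of neural crest derivatives, all 8 of smooth muscle, 7 of 8 measured of glia and 9 of 10 measured of autonomic neurons were above the floor. So were 12 of 14 cardiomyocyte markers, 8 of 11 endothelial and endocardial markers, and 10122 of all 19938 genes. Passing the floor therefore does not identify the sorted cells. The samples also differed in 3 Y-linked genes, by -1.62 to -1.17, and in Xist by -0.11.

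The matricellular genes were bright on both arrays, with values from 11.86 to 13.83, and they did not share a direction. Tgfbi, Thbs1 and Tnc were higher in the Adam19-/- sample, and Thbs2, Ccn2, Postn, Sparc, Fn1 and Ccn1 were lower. Differences ran from -0.18 for Thbs2 to 0.37 for Tgfbi, with a median of -0.05, against 0.04 for all genes above the floor. At a threshold of 1.2-fold, a difference of 0.26, Tgfbi was the 1 member counted as higher and 0 members were counted as lower. Among all genes above the floor 4.06% were higher by this much and 1.13% lower. At 1.5-fold the count was 0 in both directions, beside 0.148% of genes higher and 0.0889% lower. The threshold lies just above the 95th percentile, 0.24, of the gap between the differences of 2 clusters of 1 gene, found over 583 genes. That gap measures variation within an array and not between embryos. In RNA from a mixed sorted population, fewer cells of a type and less RNA per cell cannot be told apart. Among markers above the floor, 8 of 8 of smooth muscle and 6 of 7 of glia were lower in the mutant, and 6 of 7 of valve mesenchyme, 9 of 12 of cardiomyocytes and 4 of 4 of leukocytes were higher. These directions stand beside a median difference of 0.04 for all genes above the floor. The shares of all genes higher or lower by any amount were not counted. The leukocyte markers C1qb and Fcer1g and the cardiomyocyte marker Myh6 passed the floor in the mutant only. Their direction is thus partly set by the floor, and with lowess centring 3 of the 4 leukocyte markers were higher. In the deposited values 0 of the smooth muscle and glial markers passed 1.2-fold. After quantile normalisation, median centring or lowess centring 1 of smooth muscle was lower by it, beside 1.58%, 1.78% and 2.09% of all genes. With lowess centring 1 of glia was too. Higher by 1.2-fold in the deposited values were 3 of 7 markers of valve mesenchyme, 5 of 12 of cardiomyocytes, 3 of 4 of leukocytes and 3 of 9 of autonomic neurons. The share of all genes above the floor was 4.06%. With median or lowess centring the cardiomyocyte count was 3, with 1 lower.

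**Figure D1:**
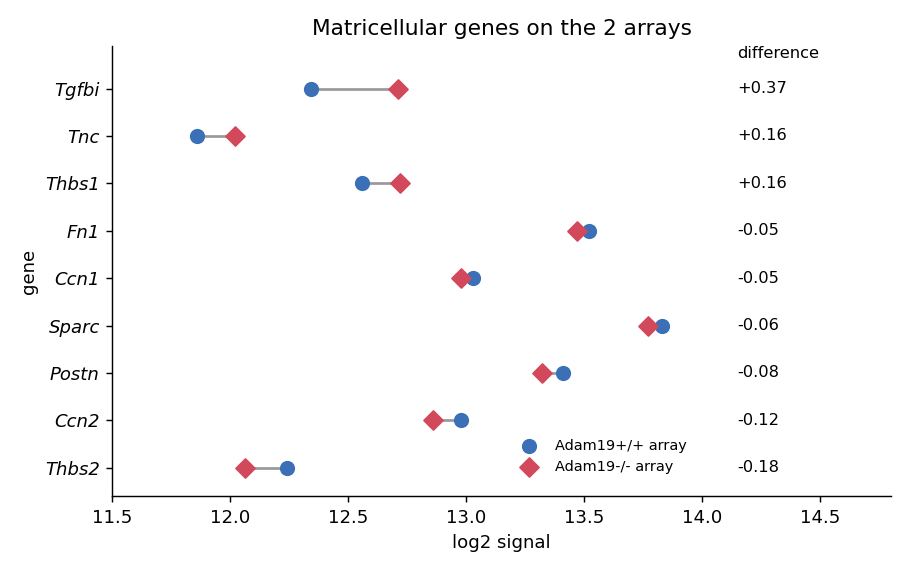
Log2 signal (horizontal axis) of each of the 9 measured matricellular genes (vertical axis) on the Adam19+/+ array (circles) and the Adam19-/- array (diamonds), 1 array each, with the difference printed at the right. The gap is widest for Tgfbi, at 0.37, and no wider than 0.18 in either direction for the other 8.

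Differences were smaller among bright genes. Of the 594 genes with a mean signal of at least 11.94, that of Tnc, the dimmest member, the central 95% of differences ran from -0.15 to 0.19 around a median of 0.01. Only 0.337% of these bright genes, Tgfbi and Crabp1, were higher by 1.2-fold, and 0.0% were lower. Tgfbi had the largest difference of the 594 in either direction, followed by Crabp1 with 0.28 and Aldoa with 0.26. Thbs2 lay outside the central range on the low side, and Thbs1 and Tnc lay inside it. The brightest cluster of the array stood at 14.51 in the Adam19+/+ and 14.52 in the Adam19-/- sample, and whether the narrow spread of bright genes reflects a compressed scale was not tested. Levels of different genes are not compared, since probes differ in how strongly they bind.

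**Figure D2:**
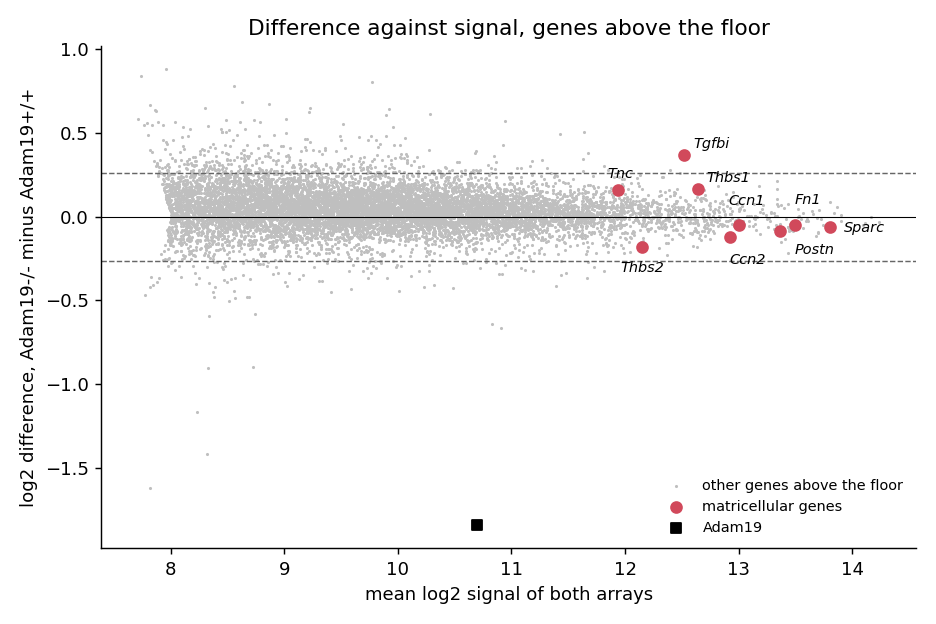
Log2 difference between the Adam19-/- and Adam19+/+ arrays (vertical axis) against the mean log2 signal of both (horizontal axis) for the 10122 genes above the floor (grey points), with the 9 matricellular genes in red, Adam19 as a black square and dashed lines at 1.2-fold. The spread narrows to the right, where the members lie, and Tgfbi stands above the upper line.

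Periostin (Postn) and TGF-beta-induced protein (Tgfbi) are relatives built from fasciclin domains that join fibronectin and collagen to integrins, and periostin is known as a matrix protein of maturing cushions and valves. Tgfbi read 12.34 in the control and 12.71 in the mutant, a difference of 0.37 or 1.29-fold. It ranked 121st of the 10122 genes above the floor by increase. A difference of at least this size, in either direction, was found in 1.59% of those genes. Postn was at 13.41 and 13.32, a difference of -0.08 or 1.06-fold lower. Of genes above the floor 45.6% differed by at least as much, and of the bright ones 26.9%. The 2 relatives thus differed in opposite directions, 0.45 apart.

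The upstream sequences of this pair and of Ccn1 are shown because Tgfbi is the member that passed 1.2-fold, Postn is its relative with the opposite sign, and Ccn1 is a standard target of YAP and TEAD. Each is the 250 bases before a listed transcript start, from RefSeq on build GRCm38.p6, 5′ to 3′ on the strand of the gene. Tgfbi lies at chr13:56609336-56609585 on the plus strand. Postn has 2 listed starts, and the window shown, at chr3:54360857-54361106 on the plus strand, is the one with a TATAAA box. Ccn1 lies at chr3:145649986-145650235 on the minus strand. Capitals mark matches to the motifs searched, as described after the sequences.
Tgfbi: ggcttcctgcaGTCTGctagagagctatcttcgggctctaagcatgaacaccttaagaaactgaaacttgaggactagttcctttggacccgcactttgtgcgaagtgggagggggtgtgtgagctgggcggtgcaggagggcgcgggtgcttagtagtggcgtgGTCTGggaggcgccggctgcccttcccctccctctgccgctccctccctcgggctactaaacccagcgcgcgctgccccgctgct
Postn: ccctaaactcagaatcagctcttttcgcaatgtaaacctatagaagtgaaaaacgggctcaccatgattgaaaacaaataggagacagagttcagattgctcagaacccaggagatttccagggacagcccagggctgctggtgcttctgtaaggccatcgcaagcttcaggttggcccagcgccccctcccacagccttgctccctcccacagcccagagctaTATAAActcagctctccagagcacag
Ccn1: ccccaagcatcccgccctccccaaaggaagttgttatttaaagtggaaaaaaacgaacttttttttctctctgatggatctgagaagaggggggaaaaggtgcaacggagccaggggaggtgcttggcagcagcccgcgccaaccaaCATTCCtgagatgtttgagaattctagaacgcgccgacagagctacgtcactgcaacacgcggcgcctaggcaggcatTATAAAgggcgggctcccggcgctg

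The motifs were searched on both strands, and no matches overlapped in these windows. The SMAD element CAGAC was found at 2 places in the Tgfbi window, beginning 239 and 85 bases before the start, both times on the opposite strand. The Postn window shown holds none, and its other listed window holds 1. This element occurs in 42.2% of all 32851 windows of the same length, so a match is common. Among the members, 7 of 10 windows, from 6 of 7 genes, hold it. The TATAAA box lies 26 bases before the start in the Postn window, which was chosen for it, and 25 in Ccn1. The letters TATAAA were found in 6 of the 10 windows, from 5 of the 7 genes, and in 12.4% of all windows. The other matches lay farther from the start. They were 126 bases before it in Thbs2, on the opposite strand, 211 in a window of Spp1, and 126 and 205 in those of Tnc. The 10 windows include 2 each of Postn, Tnc and Spp1. Those of Tnc overlap, and their 2 TATAAA matches are the same site. The shares of all windows are per window, so they are no measure for the counts of genes. The TEAD core GGAATG was found in Ccn1 alone among the 10 windows of 7 members, 103 bases before the start, and in 12.6% of all windows. Ccn2, Thbs1 and Fn1 had no window, so their upstream sequences were not searched for any motif. Neither the AP-1 site TGANTCA nor the CArG box was found in the members' windows, and these occur in 6.75% and 1.47% of all windows. The matches are descriptions of letters and show no binding.

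Fibronectin and SPARC organise the matrix around the cells. Fn1 encodes fibronectin, the fibril-forming protein on which integrin-bound cells assemble other matrix. It read 13.52 in the control and 13.47 in the mutant, a difference of -0.05. Sparc, which encodes a collagen-binding protein also called osteonectin, was at 13.83 and 13.77, a difference of -0.06. Differences of at least these sizes were found in 63.3% and 56.6% of genes above the floor. Among the 594 bright genes the shares were 48.1% and 40.2%. The fibronectin value does not separate its splice forms. Sparc lies on chromosome 11, as Adam19 does, within 20 Mb of it and with 127 measured genes between them, and it is the only member in that window.

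Tenascin-C (Tnc) loosens the attachment of cells to fibronectin and is made in cushions and around arteries. It read 11.86 in the control and 12.02 in the mutant, a difference of 0.16 or 1.12-fold higher. Of genes above the floor, 19.3% differed by at least as much, and of the 594 bright genes 6.57%. The related Tnn, Tnr and Tnxb were under the floor on both arrays, with differences from -0.07 to 0.02.

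Thrombospondin 1 and thrombospondin 2 are close relatives that bind CD47 and CD36 and restrain vessel growth, and thrombospondin 1 also activates latent TGF-beta. They differed in opposite directions. Thbs1 read 12.56 in the control and 12.72 in the mutant, a difference of 0.16. Thbs2 was at 12.24 and 12.06, a difference of -0.18, which placed it 320th from the lowest of the 10122 genes. The 2 differences lay 0.34 apart. A difference as large as that of Thbs2 was found in 14.6% of genes above the floor and in 4.38% of the bright ones, and as large as that of Thbs1 in 18.1% and 6.06%. Among the pentameric members of the family, Thbs3 was at 9.38 and 9.48, a difference of 0.10, whereas Thbs4, with a difference of 0.27, and Comp, with 0.07, were under the floor on both arrays.

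The CCN proteins are modular proteins that bind integrins and growth factors, and Ccn1 and Ccn2 are induced by serum, TGF-beta and mechanical tension. Both were slightly lower. Ccn1 read 13.03 in the control and 12.98 in the mutant, a difference of -0.05. Ccn2, also known as connective tissue growth factor, was at 12.98 and 12.86, a difference of -0.12 or 1.09-fold lower. Differences of at least these sizes were found in 64.6% and 29.1% of genes above the floor, and in 50.2% and 12.3% of the bright ones. Ccn3, named by rule among the relatives, was lower by 1.27-fold, from 11.61 to 11.26. The other relatives of this family were named after their values were seen. Ccn4 was at 10.48 and 10.25, a difference of -0.23. Ccn5 was at 7.98 and 7.44, under the floor on both arrays, with a difference of -0.54, and Ccn6 was at 5.74 on both. All 4 CCN genes above the floor were therefore lower, with a median of -0.18, against 0.04 for all genes above the floor. They were lower also after quantile normalisation, median centring and lowess centring. The family was grouped after these values were seen, and the share of all genes lower by any amount was not counted. Of the 4, Ccn3 alone was lower by 1.2-fold, beside 1.13% of all genes above the floor. Ccn4 passed it too with median or lowess centring, where the share of all genes was 1.78% and 2.09%.

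**Figure D3:**
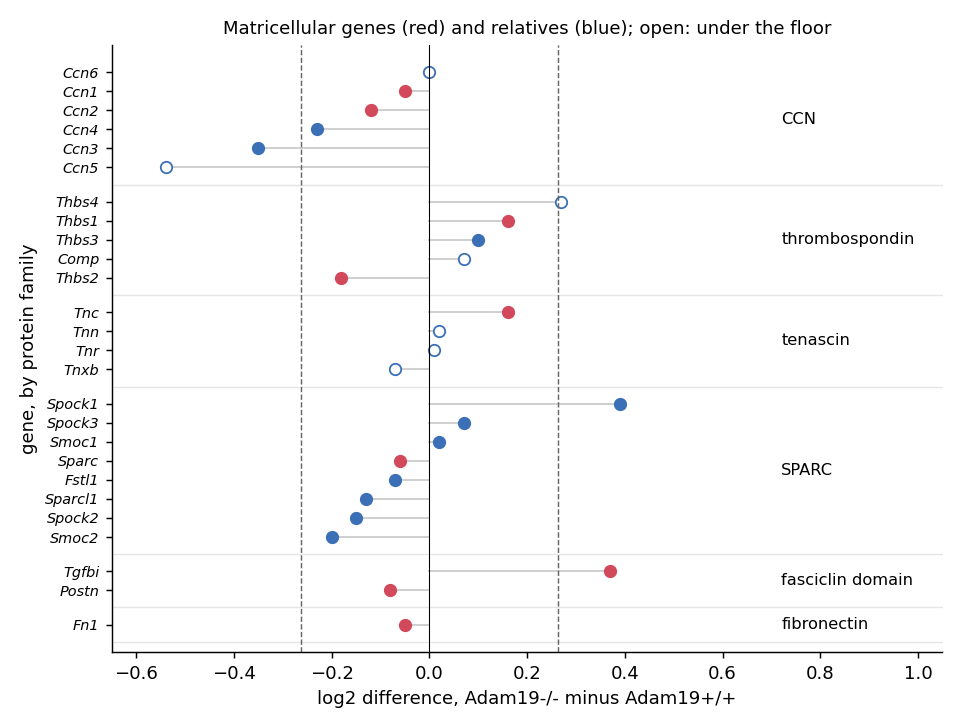
Log2 difference between the Adam19-/- and Adam19+/+ arrays (horizontal axis) for the matricellular genes (red) and their relatives (blue), grouped by protein family (vertical axis), with open circles for genes under the floor on both arrays and dashed lines at 1.2-fold. The CCN genes lie at or below 0, while the thrombospondin, SPARC and fasciclin families hold genes on both sides.

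The wider list of matricellular relatives held 22 genes, all measured, of which 11 were above the floor. These split into 5 higher and 6 lower. At 1.2-fold 2 were higher and 1 was lower, beside 4.06% and 1.13% of all genes above the floor, and the median was -0.07. The largest differences were those of Spock1, a testican proteoglycan, from 8.95 to 9.34, of Ccn3, and of Ecm1, an extracellular glycoprotein, from 8.97 to 9.29. In the SPARC family of 8 genes, 5 were lower and 3 higher, with a difference of -0.20 for Smoc2 and -0.13 for Sparcl1 beside 0.39 for Spock1.

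Among receptors of these proteins, 2 integrin chains were lower by 1.2-fold. Of 16 measured genes, 13 passed the floor. There were 8 higher and 5 lower among them, and their median difference of 0.02 was -0.02 after median centring. Itga8, whose protein binds fibronectin, tenascin-C and osteopontin, was at 10.53 and 10.12, a difference of -0.41. Itgb3, the partner chain of the integrin alpha v that binds several members, was at 9.89 and 9.61, a difference of -0.27. These were the only receptor genes above the floor that passed 1.2-fold, 2 of 13 lower and 0 higher, beside 1.13% and 4.06% of all genes above the floor. Itga5, the alpha chain of the main fibronectin receptor, was at 10.68 and 10.85, a difference of 0.17. The thrombospondin receptor gene Cd47 differed by 0.13, and Cd36, at 5.83 and 6.21, was under the floor on both arrays.

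A list of matrix proteins and matrix enzymes, such as collagens I, III, V and VI, Lox and Bmp1, had a median difference of -0.01. Of its 13 measured genes, 5 were higher and 8 lower, and not all encode proteins that bind members. A single gene passed 1.2-fold, beside 4.06% of all genes above the floor that were higher by this much and 1.13% that were lower. This was Hapln1, the link protein of hyaluronan, which went from 8.72 to 9.30, a difference of 0.58. Lox, the collagen and elastin cross-linking enzyme, was at 12.48 and 12.25, a difference of -0.23, and Col5a2, a chain of collagen V, differed by 0.11.

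Genes induced by the pathways that also induce members had medians near 0. The counts at 1.2-fold that follow stand beside 4.06% of all genes above the floor higher and 1.13% lower. Over 18 target genes of YAP and TEAD above the floor, beside Ccn1 and Ccn2, 7 were higher, 11 were lower and the median was -0.01. The largest differences were 0.57 for Nt5e, an ectonucleotidase, 0.22 for Igfbp3, an IGF-binding protein, and -0.20 for Gadd45b, a stress-response gene, and Nt5e alone passed 1.2-fold. Over 14 measured TGF-beta response genes, 5 were higher, 8 lower and 1 equal, and the median was -0.01. Ltbp2, a latent TGF-beta binding protein, differed by -0.34 and was the 1 gene past 1.2-fold, the ligand Tgfb1 by 0.21 and the smooth muscle gene Tagln by -0.15. The lists share genes and are not independent. Col1a1, Col1a2 and Col3a1 are also in the matrix list above, and Acta2 and Tagln are also smooth muscle markers. Dcn and Vcan are in both the matrix list and the valve mesenchyme markers. Genes that respond to tissue dissociation, several of which are induced with Ccn1, had a median of -0.02 over 19 genes, 7 higher, 11 lower and 1 equal, and 0 passed 1.2-fold. Ier2 differed by 0.22, Egr2 by -0.21 and Jund by 0.16.

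**Figure D4:**
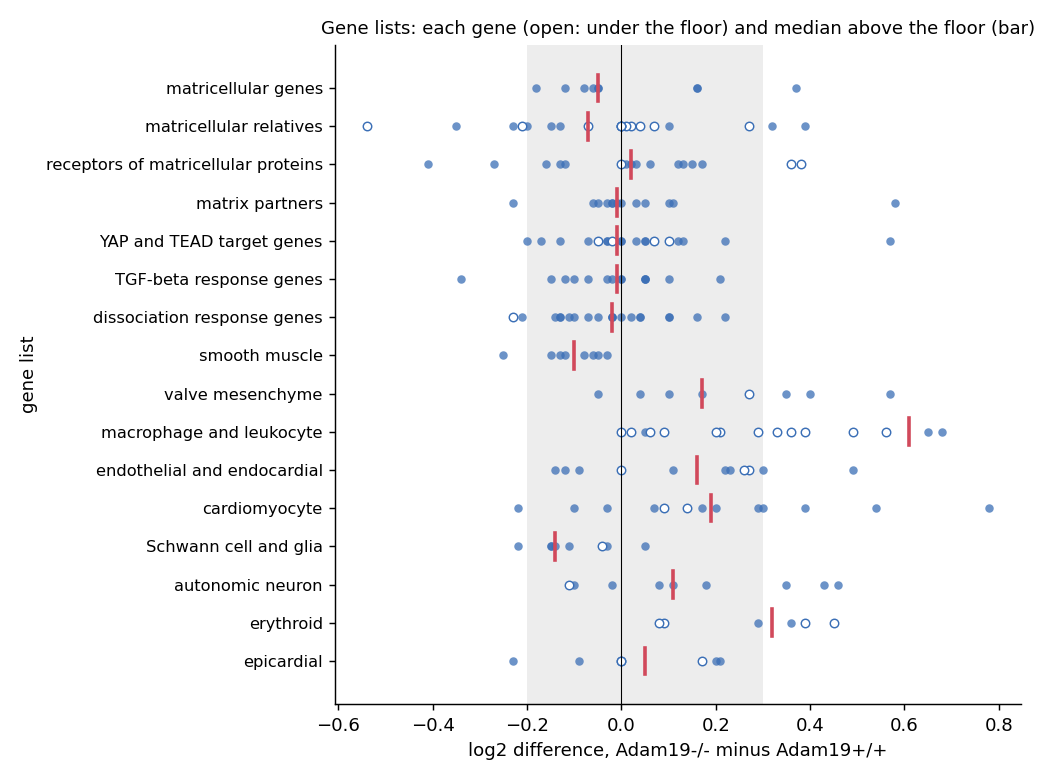
Log2 difference between the Adam19-/- and Adam19+/+ arrays (horizontal axis) for each gene (points, open when under the floor on both arrays) of each list (vertical axis), with a red bar at the median of genes above the floor and grey shading from -0.20 to 0.30, the central 95% of all genes above the floor. The matricellular genes and the pathway lists centre near 0, and the leukocyte markers lie at or above 0.

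Markers of cell types that could be in the sort differed between the samples, and the values given here for single markers are differences. All 8 smooth muscle markers were lower, with a median of -0.10, led by Lmod1 at -0.25 and Tagln. The log2 of their summed linear signal, in which bright markers weigh most, was 15.17 in the control and 15.08 in the mutant. Of 7 valve mesenchyme markers above the floor, 6 were higher, or 5 with median centring, and the median was 0.17, led by Sox9 at 0.57 and Twist1 at 0.40. The log2 of the summed linear signal, over all 8 measured, was 14.64 and 14.75. Of 16 measured macrophage and leukocyte markers, 15 were higher and 1 equal, but 12 were under the floor on both arrays. The 4 above it were led by Laptm5 at 0.68 and C1qb at 0.65, and C1qb and Fcer1g passed it in the mutant only, where they were higher. With lowess centring 3 of the 4 were higher and 1 lower. For the 16 markers the log2 of the summed linear signal was 11.30 and 11.69, and the lowest Adam19+/+ value was 5.45. Among the glial markers above the floor 6 of 7 were lower, with Dhh at -0.22 and Fabp7 at -0.15. Among the autonomic neuron markers 6 of 9 were higher, with Th at 0.46 and Dbh at 0.43.

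Of the types outside the neural crest, 9 of 12 cardiomyocyte markers above the floor were higher, with Myl7 at 0.78 and Pln at 0.54. Endothelial and endocardial markers had 5 of 8 higher, with Nfatc1 at 0.49 and Ramp2 at 0.30. Hba-x at 0.36 and Hbb-y at 0.29 were the 2 erythroid markers above the floor, and Hba-x lies within 20 Mb of Adam19. Of 4 epicardial markers 2 were higher, with Krt18 at -0.23 and Tbx18 at 0.21. Some of these directions are partly set by the floor. Myh6, a cardiomyocyte marker at 7.64 and 8.03, passed it in the mutant only, where it was higher. The endothelial Emcn, at 8.03 and 7.93, and the epicardial Krt8, at 8.07 and 7.98, passed it in the control only, where they were lower. The part of these shifts in the differences of Tgfbi, the thrombospondins or the CCN genes was not tested.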

How the data were processed

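RNA of sorted cells was hybridised to 2 arrays, 1 per genotype. The authors deposited 1 table with a log2 signal for each of 28853 transcript clusters. The sources used here do not give their background correction, normalisation or probe summary, and the log base was taken from the range of values, 4.09 to 14.52. These values were used unchanged. Gene names came from the platform annotation and, by Entrez identifier, the RefSeq gene table of GRCm38.p6. Of the clusters, 21789 had 1 symbol. The brightest cluster stood for a gene.

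With 1 array per genotype no test, p-value or error was computed, and shares of genes describe these arrays only. The number of arrays limits the precision. The members, lists and thresholds were chosen with earlier results of these data known, and the protein families and the comparison with bright genes after these values were seen. Named genes were the members, Adam19, the 3 genes of each pathway list and the 2 of each marker list with the largest absolute difference above the floor, and the Y-linked genes with Xist. Any other gene was picked with its value in view. The steps were tested on simulated data. Alternatives covered normalisation, centring, choice of clusters, a linear offset, the floor and the threshold (Python 3.11.15, numpy 2.4.6, pandas 2.3.3, statsmodels 0.14.6, matplotlib 3.10.9). Promoter windows came from RefSeq for 7 of the 10 genes, and Ccn2, Thbs1 and Fn1 had none.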

Additional observations from a re-analysis of the deposited data

How the results depend on the processing

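Under 6 alternatives (quantile normalisation, median centring, lowess centring with a span of 0.3, the mean over clusters, clusters with several symbols allowed, and 32 added to the linear signal) each of the 9 members kept the sign of its difference, and each difference moved by less than 0.05, the median gap between 2 clusters of a gene. The mean over clusters could not change a member, since each had 1 cluster of a single symbol. Allowing clusters with several symbols left the difference of each member as it was. Median centring lowers every gene by the same 0.04, and the offset of 32 is small beside the members' linear signals. Neither could therefore move a member much. The remaining settings were quantile normalisation and lowess centring. Tgfbi ran from 0.33 to 0.39, Thbs2 from -0.22 to -0.18, Ccn2 from -0.16 to -0.11 and Postn from -0.12 to -0.05. The count of members higher by 1.2-fold was 1 and of members lower 0 under each. It was 0 higher at a threshold of 1.5-fold and 0 at 2-fold. The median of the members ran from -0.09 with median centring to -0.04 after quantile normalisation. The share of genes above the floor that were higher by 1.2-fold, 4.06% in the main setting, was 2.11% with lowess centring, 2.42% with median centring, 2.68% after quantile normalisation and 2.30% where the floor was the 75th percentile. The share that were lower, 1.13%, was 1.78% with median centring, 2.09% with lowess centring and 2.02% with no floor. No paired analysis was possible because each genotype had 1 array. No replicate could be left out for the same reason.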

Other observations

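A further 16 genes, mostly of secreted proteins that bind integrins or fibres, were listed after the results above were seen, and all were measured. The 14 above the floor split evenly, 7 to 7, between higher and lower, and their median difference was 0.05. Npnt, Edil3 and Egfl6 were higher by 1.2-fold, as were 4.06% of genes above the floor. Npnt, which encodes nephronectin, a ligand of the integrin that holds the Itga8 chain, read 9.42 in the control and 9.90 in the mutant, a difference of 0.48, while Itga8 itself differed by -0.41. Edil3, which encodes an integrin ligand with EGF-like repeats, started from 9.52 and also differed by 0.48. Egfl6, another EGF-repeat protein of the matrix, read 7.91 and 8.39, so it passed the floor in the mutant only, where it was higher, and its direction is partly set by the floor. Cthrc1, a secreted protein of matrix-producing cells, read 12.22 in the mutant, a difference of 0.23. The elastic fibre proteins fibulin 5 (Fbln5) and fibulin 2 (Fbln2) each differed by -0.09 and fibulin 1 (Fbln1) by 0.12. Matn2, which encodes matrilin 2, was at 10.51 and 10.34, a difference of -0.17.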
